A study of Mus musculus with 12 samples.

Results

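The corticotropin-releasing hormone (CRH) system and other neuropeptide precursors were examined in the cortex and hippocampus of irradiated and sham-irradiated mice. The genes were Crh, its receptor Crhr1, its binding protein Crhbp, and the precursor genes Npy, Vip, Cck, Tac1, Tac2, Penk and Pdyn. They were chosen by symbol, and all 10 were found among the 23183 gene symbols listed for each library. Male C57BL/6 mice that arrived at 7 weeks of age and were acclimatized for 1 week were sham-irradiated (Con) or exposed once to 10 Gy over the whole brain (IR). RNA of the cortex and of the hippocampus was sequenced 3 months later, with 3 Con and 3 IR libraries per tissue and 12 libraries in all. The IR mice differed from the Con mice by this exposure alone as far as the labels state, and no genotype or transgene was involved. The labels do not state which libraries came from the same mouse or whether mice were pooled, so the p values measure the spread between these libraries. Levels are given in FPKM, the number of sequenced fragments corrected for transcript length and for library size, and so can be compared between genes of different length.

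Neuropeptides are made as longer precursors, cut by proprotein convertases, stored in dense-core vesicles and released to act on G protein-coupled receptors. CRH starts the hormonal stress response from the hypothalamus, but in the cortex and hippocampus it is made by local inhibitory interneurons and acts on CRHR1, which is carried mainly by other neurons. CRHBP, a secreted protein, holds CRH and keeps it from the receptor. Vip, Npy, Tac1, Tac2 and Penk mark subsets of cortical interneurons, Cck is found in interneurons and in many excitatory neurons, and Pdyn is well known from granule cells of the dentate gyrus.

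Many neuropeptide genes carry a cAMP response element, TGACGTCA, the site bound by the transcription factor CREB, or its half-site TGACG. The windows around the half-sites in the promoters of these genes are shown because the half-site is a classical element of neuropeptide genes. RefSeq promoters on GRCm38.p6, of which the 250 bases before the start were searched on both strands, were matched for 8 of the 10 genes, with 9 promoters in all (2 for Pdyn). Crh and Penk were not among them. A half-site stood in 4 of the 9 promoters, those of Vip, Cck, Tac1 and Crhbp, with 5 half-sites in total, 2 of them in Tac1. It was found in 17.8% of all 32851 promoters of the same length. The full site TGACGTCA, which contains the half-site on both strands, was in 0 of the 9 and in 1.55% of all promoters. Of the 4 genes with a half-site Crhbp was not called between the tissues, and Pdyn, Npy, Tac2 and Crhr1 were called without one. A match describes the letters of the window and is no measure of binding. Each line below runs 5′ to 3′ along the gene's strand with the half-site in capitals, written as CGTCA where it lies on the opposite strand. Distances count from the RefSeq start, which for Vip and Cck is also the start of the GENCODE M21 gene. For Tac1 the RefSeq start is at 7555061 and the GENCODE gene begins upstream of it at 7554879, and for Crhbp these are 95444831 and 95444924, so that the nearer Tac1 half-site and that of Crhbp lie inside the GENCODE gene.
Vip, chr10:5639124-5639158, plus strand, 79 bases before the start: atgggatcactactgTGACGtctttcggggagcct
Cck, chr9:121495722-121495756, minus strand, 47 bases before the start: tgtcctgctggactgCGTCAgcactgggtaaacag
Tac1, chr6:7554849-7554883, plus strand, 197 bases before the start: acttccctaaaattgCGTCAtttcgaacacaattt
Tac1, chr6:7555003-7555037, plus strand, 43 bases before the start: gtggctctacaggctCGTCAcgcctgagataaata
Crhbp, chr13:95444876-95444910, minus strand, 64 bases before the start: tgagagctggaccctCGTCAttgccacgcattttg

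FPKM summed to between 359773 and 393447 per library, and the median over genes of each library's ratio to the geometric mean was 0.995 to 1.02. Read counts were not used here, so the absolute depth is not known. Relative depth was sought as the commonest ratio of low FPKM values to those of cortex Con 1, and gave 0.971 to 1.09. Only ratios near 1 were searched, and outside cortex Con 1 only 0.592% to 7.42% of the low genes had the commonest ratio. The relative depth was thus not settled. The value columns of the cortex and hippocampus files carry different endings, so tissue and a possible processing run cannot be told apart. The summed level of 7 choroid plexus genes was 1076 FPKM in hippocampus Con 2, 1665 FPKM in hippocampus IR 1 and 443 FPKM in cortex IR 2, against 5.03 to 68.3 FPKM in the other 9 libraries, and each comparison was therefore also made without these 3. Of 9 dentate granule cell markers, 7 were called higher and 1 lower in hippocampus Con than in cortex Con, among them Prox1 (log2 difference 2.52, adjusted p = 2.29e-10).

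In cortex Con the 10 genes covered a wide range of levels. Cck, the precursor of cholecystokinin, stood first at 506 ± 38.1 FPKM (SD, n = 3), and only 69 of the 23183 genes had a higher mean. Npy, the precursor of neuropeptide Y, followed at 123 ± 20.2 FPKM and Vip, the precursor of vasoactive intestinal peptide, at 30.7 ± 3.54 FPKM. Crhr1, Penk, Pdyn, Tac2 and Crhbp lay between 14.2 and 9.66 FPKM in that order, and each overlapped its neighbour over the 3 libraries. Tac1 at 7.73 ± 0.708 FPKM and Crh at 3.34 ± 0.325 FPKM stood apart below them. Thus Crh had the lowest level of the 10, and 45.0% of all genes had a higher mean.

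In hippocampus Con the ends of the order were the same and its middle was not. Cck was first at 409 ± 26.2 FPKM, Npy second at 55.4 ± 2.85 FPKM and Crh last at 0.835 ± 0.389 FPKM. Penk and then Crhbp came next, each apart from its neighbours. Vip, Pdyn, Tac1, Crhr1 and Tac2 followed between 6.50 and 3.28 FPKM, and each of them overlapped the next. The mean ratio of Crh to Crhbp was 0.345 ± 0.0272 in cortex Con and 0.1005 ± 0.0539 in hippocampus Con (SD, n = 3), whereas Crh to Crhr1 was 0.235 ± 0.0254 and 0.218 ± 0.115.

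**Figure D1:**
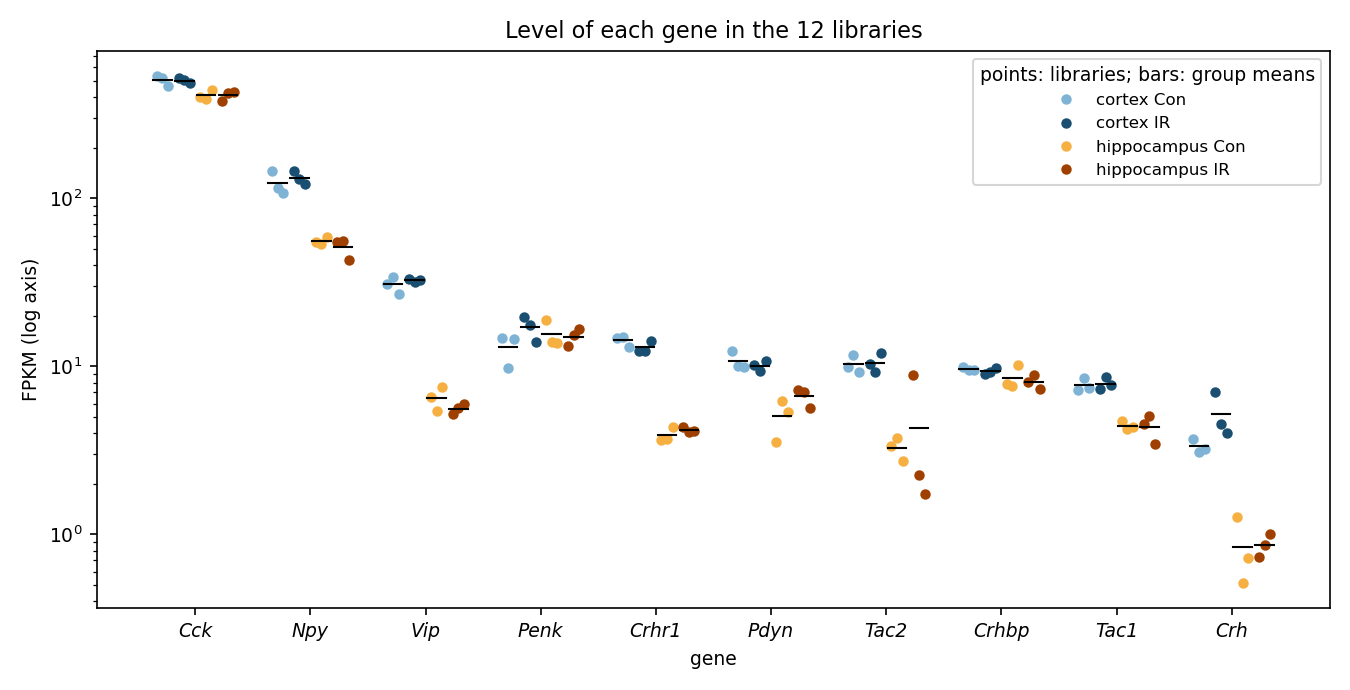
FPKM on a log axis for the 10 genes in the 12 libraries, with each library as a point and each group mean as a bar. Cck lies at 379 FPKM or above in every library, Crh at 0.516 to 7.01 FPKM, and the cortex points lie above the hippocampus points for most genes.

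The first comparison asked which of these genes differed between the tissues at baseline. In the sham libraries 8 of the 10 genes had lower levels in hippocampal than in cortical RNA, Vip, Crhr1, Tac2, Crh, Npy, Pdyn, Tac1 and Cck, and none was called higher. For each of the 8 the 3 hippocampus libraries lay below the 3 cortex libraries. Crhbp and Penk did not pass the test. A difference was called at an adjusted p under 0.05 from limma, with the Benjamini-Hochberg adjustment over all 14577 genes tested. Of these genes 43.8% were called in either direction, 20.5% as lower in the hippocampus and 23.4% as higher. The median log2 difference was -1.05 over the 10 genes and 0.02 over all genes tested. In whole tissue, fewer cells that make a peptide and less RNA per cell cannot be told apart.

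**Figure D2:**
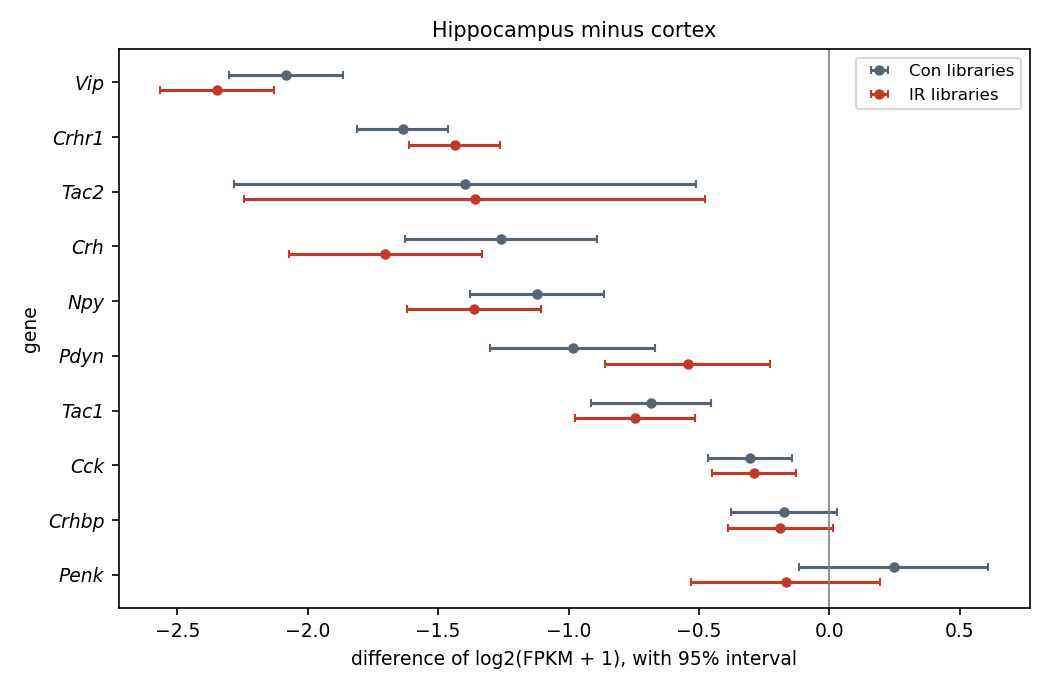
Difference of log2(FPKM + 1) between hippocampus and cortex for each gene with its 95% interval, in the Con libraries and in the IR libraries. Vip is farthest to the left at -2.08 in Con and -2.35 in IR, and the intervals of Crhbp and Penk span 0 in both.

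In the CRH system the ligand and the receptor were both lower in the hippocampus and the binding protein was not called. Crh (chr3:19693401-19695396, minus strand, GENCODE M21 on GRCm38) was at 3.70, 3.08 and 3.23 FPKM in cortex Con libraries 1 to 3 and at 1.27, 0.516 and 0.720 FPKM in hippocampus Con. The lowest cortex library was thus above the highest hippocampus library. The ratio of the cortex mean to the hippocampus mean was 3.996, and the log2 difference was -1.26 (SE 0.17, 95% interval -1.63 to -0.89, adjusted p = 5.33e-05). This difference is on the log2(FPKM + 1) scale, which understates the change of a low gene, and it was -1.95 with a pseudocount of 0.1.

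Crhr1, the main CRH receptor of the cortex (chr11:104132855-104175523, plus strand), was at 14.7, 14.95 and 13.0 FPKM in cortex Con and at 3.63, 3.71 and 4.36 FPKM in hippocampus Con. The groups were far apart, with a ratio of means of 3.65 and a log2 difference of -1.64 (SE 0.08, interval -1.81 to -1.46, adjusted p = 4.80e-09). Crhbp (chr13:95431371-95444924, minus strand) was at 9.87, 9.55 and 9.56 FPKM in cortex Con and at 7.79, 7.63 and 10.1 FPKM in hippocampus Con. Hippocampus Con 3 stood above all cortex libraries, and the log2 difference was -0.17 (interval -0.38 to 0.03, adjusted p = 0.153). Without hippocampus Con 3 the difference for Crhbp was -0.29 and passed the test (adjusted p = 0.00709). The second CRH receptor gene, Crhr2, was at 0.619, 1.09 and 0.494 FPKM in hippocampus Con and at 0.145 to 0.416 FPKM in cortex Con (log2 difference 0.40, adjusted p = 0.0524).

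**Figure D3:**
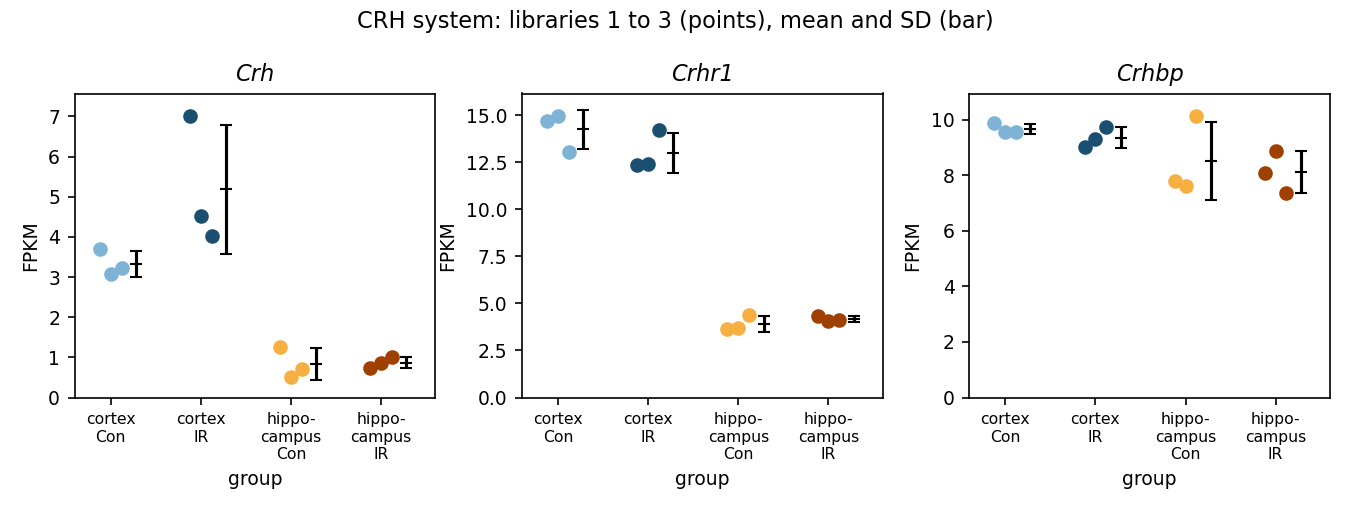
FPKM of Crh, Crhr1 and Crhbp, with libraries 1 to 3 of each group as points from left to right and the mean with its SD as a bar beside them. Crh and Crhr1 are lower in both hippocampus groups than in both cortex groups, Crhbp overlaps between the tissues in Con but not in IR, and cortex IR 1 stands highest for Crh at 7.01 FPKM.

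Npy and Vip, peptides of separate interneuron classes, were both lower in the hippocampus. Npy (chr6:49822710-49829507, plus strand) was at 145.6, 115 and 107 FPKM in cortex Con and at 54.5, 53.1 and 58.6 FPKM in hippocampus Con. The highest hippocampus library was far under the lowest cortex library, and the ratio of means was 2.21 (log2 difference -1.12, interval -1.38 to -0.87, adjusted p = 5.81e-06). Vip (chr10:5639218-5647617, plus strand) was at 30.7, 34.2 and 27.1 FPKM in cortex Con and at 6.58, 5.40 and 7.52 FPKM in hippocampus Con. It differed more than the other 9 genes, 4.72-fold between the means, with a log2 difference of -2.08 (interval -2.30 to -1.86, adjusted p = 4.03e-09).

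Cck (chr9:121489824-121495694, minus strand) was at 533, 522 and 463 FPKM in cortex Con and at 400.3, 389 and 439 FPKM in hippocampus Con. The groups were close but did not overlap, and the ratio of means was 1.24 (log2 difference -0.30, interval -0.46 to -0.14, adjusted p = 0.00481).

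The tachykinin precursors were lower in the hippocampus too. Tac1, which encodes substance P and neurokinin A (chr6:7554879-7565834, plus strand), was at 7.22, 8.54 and 7.44 FPKM in cortex Con and at 4.71, 4.24 and 4.34 FPKM in hippocampus Con. The ratio of its means was 1.75 (log2 difference -0.68, interval -0.92 to -0.45, adjusted p = 0.000182). Tac2, which encodes neurokinin B (chr10:127724478-127731768, plus strand), was at 9.87, 11.6 and 9.28 FPKM in cortex Con and at 3.35, 3.76 and 2.73 FPKM in hippocampus Con. The ratio of means was 3.13, larger than that of Tac1, yet the interval was wide (log2 difference -1.40, interval -2.28 to -0.51, adjusted p = 0.0167). The fit shares its estimate of the spread over 4 groups, and Tac2 in hippocampus IR 1 was far above the other hippocampus libraries. With the 6 Con libraries alone the adjusted p was 1.81e-05, whereas without hippocampus Con 3 the difference was -1.30 and did not pass (adjusted p = 0.0540).

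The opioid precursors differed from each other. Pdyn, the precursor of the dynorphins (chr2:129686565-129699844, minus strand), was at 12.4, 10.1 and 9.89 FPKM in cortex Con and at 3.55, 6.17 and 5.37 FPKM in hippocampus Con, without overlap. The ratio of means was 2.14 (log2 difference -0.98, interval -1.30 to -0.67, adjusted p = 0.000125). Penk, the precursor of the enkephalins (chr4:4133531-4138819, minus strand), was at 14.7, 9.81 and 14.5 FPKM in cortex Con and at 18.95, 13.9 and 13.7 FPKM in hippocampus Con. Its groups overlapped and the log2 difference was 0.25 (interval -0.12 to 0.61, adjusted p = 0.256). The ratio of Penk to Pdyn was 0.972 to 1.46 in cortex Con, and in hippocampus Con it was 5.33 in library 1 against 2.25 and 2.56 in libraries 2 and 3. Penk is abundant in the striatum, which borders the cortex, and the summed level of 10 striatal projection neuron markers was 72.7 to 79.1 FPKM in cortex Con and 38.2 to 49.6 FPKM in hippocampus Con. The part of this in the levels of Penk was not tested. Of the 9 striatal markers tested, 1 was called higher and 3 lower in the hippocampus, with Syndig1l higher (0.76) and Drd1 (-0.69) and Ppp1r1b (-0.61) among the lower ones.

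The same comparison was made between the irradiated libraries, with the estimate of spread shared with the Con libraries in the fit of all 12. There the 8 genes again had an adjusted p under 0.05 and lower values in the hippocampus, with log2 differences of -2.35 for Vip, -1.70 for Crh, -1.44 for Crhr1, -1.36 for Npy and Tac2, -0.75 for Tac1, -0.54 for Pdyn and -0.29 for Cck. Of all 14577 genes tested 41.1% were called in this comparison, 20.0% as lower in the hippocampus and 21.0% as higher. The largest adjusted p value of the 8 genes was 0.0202, for Tac2. Crhbp (-0.19, adjusted p = 0.129) and Penk (-0.17, adjusted p = 0.459) again did not pass, although Crhbp was at 7.36 to 8.87 FPKM in hippocampus IR and at 9.01 to 9.74 FPKM in cortex IR, without overlap.

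The receptors of these peptides showed 2 opposite extremes. Of 15 listed receptor genes 9 were tested between the tissues, 4 were called lower in the hippocampus and 1 higher. Npy2r, a neuropeptide Y receptor found largely on nerve terminals, was at 0.824, 0.858 and 1.29 FPKM in cortex Con and at 23.7, 26.3 and 23.3 FPKM in hippocampus Con. Its mean was 24.6-fold higher in the hippocampus (log2 difference 3.68, adjusted p = 9.14e-11), whereas its ligand gene Npy was lower there. Cckbr, the main cholecystokinin receptor of the brain, was at 30.3, 26.7 and 28.03 FPKM in cortex Con and at 2.85, 2.08 and 2.84 FPKM in hippocampus Con (log2 difference -3.04, adjusted p = 4.40e-10). Its ligand gene Cck differed only 1.24-fold. The delta opioid receptor gene Oprd1 (-0.78) and the VIP receptor gene Vipr1 (-0.61) were also lower, as was the kappa opioid receptor gene Oprk1 (-0.37, adjusted p = 0.0426), the fifth call, named after its values were seen. Cckar, Vipr2, Oprm1, Tacr2, Npy4r and Npy6r did not pass the filter on low values.

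**Figure D4:**
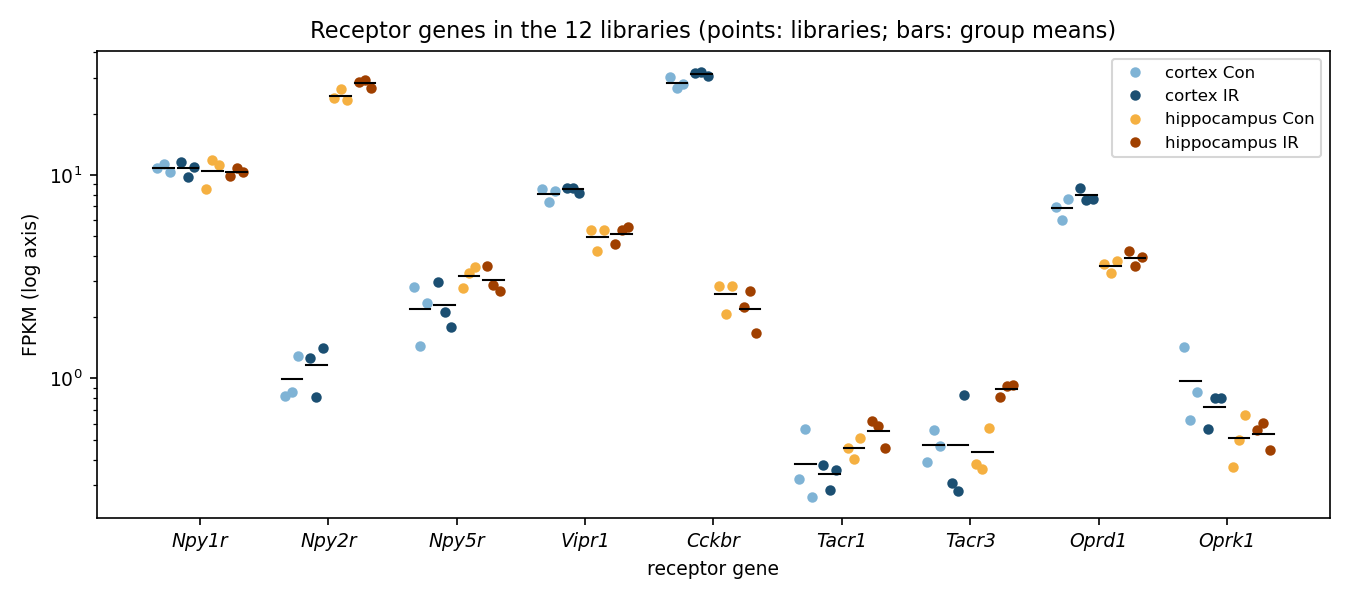
FPKM on a log axis of the 9 receptor genes that were tested between the tissues, with libraries as points and group means as bars. Npy2r is near 1 FPKM in the cortex and at 23.3 FPKM or more in the hippocampus, and Cckbr lies the other way round.

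Genes that process and store peptides, other precursors and interneuron genes were set beside the 10. All 16 genes of processing and dense-core vesicles were tested and 12 were called, 8 lower and 4 higher in the hippocampus. Lower were Scg5 (-0.62), which encodes a chaperone of prohormone convertase 2, Pcsk1 (-0.84), which encodes prohormone convertase 1, and its inhibitor gene Pcsk1n (-0.48). Cpe, which encodes the carboxypeptidase that trims the cut peptides, was higher (0.57). Of 25 other precursor genes 14 were tested and 7 were called, 6 lower and 1 higher. Adcyap1, the precursor of PACAP, differed by -1.27, and Nppc, the precursor of C-type natriuretic peptide, by -1.03. Kiss1 was at 1.14 to 1.57 FPKM in cortex Con and was listed at 0 in the 3 hippocampus Con libraries, whereas Gal, the galanin precursor, was at 0.985 to 1.41 FPKM in hippocampus Con and at 0.112 FPKM or less in cortex Con.

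Interneuron genes did not all follow the peptides. Of 13 interneuron markers 5 were called lower and 3 higher in the hippocampus. Lamp5 (-2.64) and Pvalb (-1.58) were lower, and Calb2 (1.62) and Adarb2 (0.55) were higher. The summed level of the 13 was 356 to 440 FPKM in cortex Con and 236 to 273 FPKM in hippocampus Con, without overlap. Lamp5 and Pvalb weighed most in this difference, with means of 104 and 77.8 FPKM in cortex Con and 15.6 and 25.4 FPKM in hippocampus Con. The general inhibitory genes differed less, Gad1 at 110 and 93.2 FPKM, Slc32a1 at 32.6 and 26.8 FPKM and Gad2 at 27.2 and 30.2 FPKM. The part of interneuron RNA in the lower peptide levels was not tested. Of 11 genes of the CRH family and the pituitary-adrenal axis 4 were tested, and Oxtr, the oxytocin receptor gene, was called (0.63, higher in the hippocampus). The other CRH-related ligand genes Ucn, Ucn2 and Ucn3 did not pass the filter, and Ucn3 was listed at 0 in every library. Of the remaining lists, 6 of 10 activity-regulated genes were called, 5 lower and Bdnf higher (1.14), 1 of 7 choroid plexus markers was higher (Kl, 2.52), and 2 of 5 thalamus and habenula markers tested were higher (Lhx9, 2.87, and Prkcd, 1.66).

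Genes with a pattern like that of Crh were looked for over the 12 libraries, as the smallest mean absolute difference in log2(FPKM + 1) after each gene was centred on its own mean. Of 12947 genes with a mean of at least 1 FPKM, Mtcl1 (0.14), Il17ra (0.14) and Afap1l1 (0.15) were nearest, against a median of 0.75 over all genes compared. Il17ra was at 6.77 ± 0.355 FPKM in cortex Con, 9.04 ± 0.588 in cortex IR, 2.43 ± 0.446 in hippocampus Con and 2.20 ± 0.130 in hippocampus IR (SD, n = 3). In the same order the means were 20.3, 23.0, 8.53 and 7.55 FPKM for Mtcl1 and 10.4, 11.4, 3.85 and 3.79 FPKM for Afap1l1. In all 3 genes the difference between the tissues was larger than that between Con and IR. The likeness is a description over 12 libraries that fall into 4 groups.

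The second comparison asked whether irradiation changed these genes in the cortex. None of the 10 passed the test in cortex IR against cortex Con at an adjusted p under 0.05, where 0.725% of the 14065 genes tested did. At an unadjusted p under 0.05 there were 2, Crh and Penk, both higher in IR, against 14.1% of all genes tested. Con and IR did not overlap for 1 of the 10, Crh, against 20.3% of all genes. With 10 genes these shares are near the background. The median log2 change was 0.03 over the 10 genes and 0.0016 over all genes tested.

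Crh was at 7.01, 4.53 and 4.02 FPKM in cortex IR libraries 1 to 3, against 3.08 to 3.70 FPKM in cortex Con. All 3 IR libraries were above all 3 Con libraries, and IR 1 was far above the other IR libraries. The ratio of the IR mean to the Con mean was 1.56, with a log2 change of 0.49 (SE 0.16, 95% interval 0.14 to 0.84). The limma p was 0.0118 and the adjusted p was 0.217, so the change did not pass. Without cortex IR 1 the log2 change fell to 0.28 (adjusted p = 0.484), and over all 15 alternatives the adjusted p was between 0.147 and 0.484. Crhr1 at 12.4, 12.4 and 14.2 FPKM in cortex IR (log2 change -0.12, adjusted p = 0.511) and Crhbp at 9.01, 9.30 and 9.74 FPKM (-0.04, adjusted p = 0.804) overlapped with Con. The ratio of Crh to Crhbp was 0.322 to 0.375 in cortex Con and 0.412 to 0.778 in cortex IR.

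Penk was at 19.6, 17.5 and 14.0 FPKM in cortex IR and at 9.81 to 14.7 FPKM in cortex Con. Cortex IR 3 lay within the Con range, and the change was 0.38 on the log2 scale (ratio of means 1.31, interval 0.00 to 0.75, adjusted p = 0.347). Without cortex Con 2 it was 0.20 (adjusted p = 0.473). The summed striatal markers were 76.6 to 81.8 FPKM in cortex IR and 72.7 to 79.1 FPKM in cortex Con, and none of the 9 tested was called. Most of that sum was Ppp1r1b at 47.6 to 54.9 FPKM in IR, while Drd2 was at 0.327 to 0.601 FPKM and Isl1 at 0.0682 FPKM or less. The smallest p values of the list were those of Drd1 (-0.20, adjusted p = 0.412) and Adora2a (0.23, adjusted p = 0.423). The part of striatal RNA in the level of Penk was not tested.

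The other precursors differed by little in the cortex. Npy was at 144, 131 and 122 FPKM in cortex IR (log2 change 0.12, adjusted p = 0.675) and Vip at 33.1, 31.8 and 32.7 FPKM (0.09, adjusted p = 0.653). Pdyn was at 10.2, 9.31 and 10.8 FPKM (-0.08, adjusted p = 0.723), Tac1 at 7.33, 8.64 and 7.70 FPKM (0.03, adjusted p = 0.923) and Tac2 at 10.3, 9.24 and 11.9 FPKM (0.03, adjusted p = 0.933). For these 5 genes the Con and IR ranges overlapped. Cck was at 516, 503 and 484 FPKM in cortex IR, all within the Con range, with a change of -0.01 and a narrow interval of -0.15 to 0.13 (adjusted p = 0.954).

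**Figure D5:**
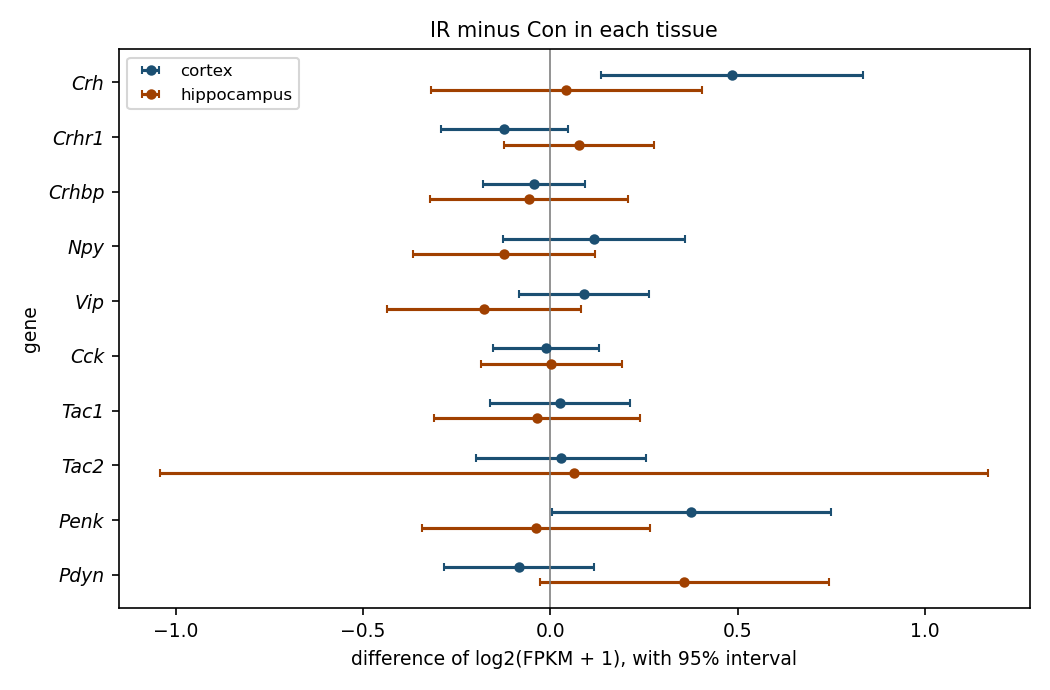
Log2 change from Con to IR with its 95% interval for the 10 genes in each tissue, on the log2(FPKM + 1) scale. Crh lies farthest to the right in the cortex at 0.49, Pdyn in the hippocampus at 0.36, and the interval of Tac2 in the hippocampus runs from -1.04 to 1.17.

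Among the other genes of the peptide pathway 1 change passed in the cortex. Pcsk1 was at 15.6, 15.8 and 16.7 FPKM in cortex IR and at 12.1, 10.9 and 11.7 FPKM in cortex Con, and it rose 1.39-fold (log2 change 0.44, adjusted p = 0.0170). It was the only one called of the 16 genes of processing and dense-core vesicles. None of the 7 receptor genes tested was called, and Cckbr (0.14, adjusted p = 0.323) and Oprd1 (0.19, adjusted p = 0.383) had the smallest p values. None of the 12 other precursors tested was called either. Nppc was lower in all 3 IR libraries (-0.35, adjusted p = 0.0802), as was Calca (-0.33, adjusted p = 0.250).

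Activity-regulated genes moved beside these values. All 10 had a change above 0 in the cortex, against 7102 of all 14065 genes tested. Called were 4, Homer1 (0.84, adjusted p = 0.00400), Bdnf (0.59, adjusted p = 0.0106), Nptx2 (0.58, adjusted p = 0.0244) and Fosb (0.77, adjusted p = 0.0303). The summed level of the 10 was 192 to 362 FPKM in cortex Con and 580 to 691 FPKM in cortex IR, and their median log2 change was 0.81. Arc (mean 62.1 FPKM in cortex Con, 178 in cortex IR) and Egr1 (80.0 and 169) had the highest means of the 10 and were not called. The IR library with the highest sum, IR 3, had the lowest Crh of the 3. Whether these genes bear on the level of Crh was not tested. None of the 3 tested genes of the CRH family was called (Avp -0.54, adjusted p = 0.562, and Oxtr 0.11, adjusted p = 0.638). None of the 13 interneuron markers was called, and Reln (-0.30, adjusted p = 0.171) and Adarb2 (-0.23, adjusted p = 0.317) had the smallest p values. The 7 dentate, 4 choroid plexus and 4 thalamus and habenula markers tested in the cortex gave 0 calls, with Pdzd2 (0.09) and Glis3 (-0.10), Kl (0.60) and Clic6 (0.60), and Zic1 (-0.13) and Prkcd (0.07) at the smallest p values of each list.

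The third comparison asked the same in the hippocampus. None of the 10 genes passed the test by limma in hippocampus IR against hippocampus Con, where 0.0285% of the 14043 genes tested did. None had an unadjusted p under 0.05, against 13.9% of all genes, and Con and IR overlapped for all 10, whereas 19.8% of all genes had no overlap. The median log2 change was -0.02 over the 10 genes and -0.01 over all genes tested.

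Crh was at 0.729, 0.864 and 1.00 FPKM in hippocampus IR, within the Con range of 0.516 to 1.27 FPKM. The log2 change was 0.04 (interval -0.32 to 0.40, adjusted p = 0.919). Crhr1 was at 4.34, 4.04 and 4.10 FPKM (log2 change 0.08, adjusted p = 0.700) and Crhbp at 8.09, 8.87 and 7.36 FPKM (-0.06, adjusted p = 0.841). In both tissues the receptor and the binding protein thus overlapped between Con and IR.

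Pdyn was at 7.21, 7.03 and 5.65 FPKM in hippocampus IR and at 3.55, 6.17 and 5.37 FPKM in Con. IR 1 and IR 2 were above every Con library and IR 3 was not, and the change of 0.36 did not pass (ratio of means 1.32, interval -0.03 to 0.74, adjusted p = 0.380). Without hippocampus Con 1 the change was 0.17 (adjusted p = 0.664). The summed dentate granule cell markers were 136 to 141 FPKM in hippocampus IR and 107 to 132 FPKM in Con, without overlap. All 9 of these markers had a change above 0 (median 0.26), against 6636 of all 14043 genes tested. None of the 9 was called, with Prox1 at 0.30 (adjusted p = 0.247) and Plk5 at 0.33 (adjusted p = 0.341). The part of the granule cell RNA in the level of Pdyn was not tested. Penk was at 13.1, 15.3 and 16.6 FPKM (-0.04, adjusted p = 0.914).

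A single library set the value of Tac2 in the hippocampus. It was at 8.91 FPKM in IR 1 and at 2.25 and 1.74 FPKM in IR 2 and IR 3, while the 3 Con libraries were at 2.73 to 3.76 FPKM. The change was 0.06 with an interval of -1.04 to 1.17 (adjusted p = 0.960), and without IR 1 it was -0.51 (adjusted p = 0.573). The medial habenula, which lies close to the hippocampus, is a known site of Tac2. The summed level of 6 thalamus and habenula markers was 40.8 FPKM in IR 1 against 20.6 to 26.3 FPKM in the other 5 hippocampus libraries, and IR 1 also had the highest choroid plexus sum of the 12 libraries. Of the 6 markers, all were highest in IR 1 among the hippocampus libraries, with Tcf7l2 at 3.90 FPKM and Zic1 at 8.15 FPKM, and Gbx2 was at 0.159 FPKM there and listed at 0 in Con 1. The part of RNA from neighbouring tissue in the level of Tac2 was not tested. Of the 5 thalamus and habenula markers tested in the hippocampus none was called, with Lhx9 at 0.33 (adjusted p = 0.247) and Prkcd at 0.28 (adjusted p = 0.488).

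The remaining precursors overlapped between Con and IR in the hippocampus as well. Vip was at 5.19, 5.63 and 5.99 FPKM in IR (log2 change -0.18, adjusted p = 0.487) and Npy at 54.6, 56.0 and 42.7 FPKM (-0.12, adjusted p = 0.602). Tac1 was at 4.54, 5.04 and 3.44 FPKM (-0.04, adjusted p = 0.908). Cck was at 379, 425 and 426 FPKM, with a mean of 410.0 ± 26.8 FPKM in IR against 409 ± 26.2 FPKM in Con.

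No gene of the other lists was called in the hippocampus. Among 9 receptor genes tested, Tacr3, the receptor for neurokinin B, was at 0.813 to 0.928 FPKM in IR and 0.359 to 0.568 FPKM in Con (0.40, adjusted p = 0.254), and Npy2r was at 26.6 to 29.3 FPKM in IR and 23.3 to 26.3 FPKM in Con (0.20, adjusted p = 0.316). Of the 16 processing and dense-core vesicle genes 15 had a change below 0, against 7407 of all 14043 genes tested. Their median was -0.09, with Cadps2 at -0.41 (adjusted p = 0.273) and Pam at -0.22 (adjusted p = 0.310). Whether they moved as a set was not tested. In the remaining lists the smallest p values were those of Nppc (-0.49) and Nts (-0.77) of 10 precursors, Oxtr (0.28) and Crhr2 (0.22) of 4 CRH family genes, Htr3a (0.22) and Reln (-0.18) of 13 interneuron markers, Nptx2 (-0.22) and Fos (0.63) of 10 activity-regulated genes, Rgs9 (0.19) of 8 striatal markers, and Kl (0.24) and Kcnj13 (0.23) of 6 choroid plexus markers. Nppc was thus lower in every IR library in both tissues without passing the test in either.

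The last comparison asked whether the change with irradiation differed between the tissues, as the change in the hippocampus minus that in the cortex. None of the 10 genes passed, nor did any have an unadjusted p under 0.05, whereas 0.0823% of the 14577 genes tested passed and 10.3% had such a p. Pdyn had the smallest p of the 10, with a difference of 0.44 (adjusted p = 0.491), and Crh differed by as much in the other direction, -0.44 (interval -0.96 to 0.08, adjusted p = 0.544). For Penk it was -0.41 (adjusted p = 0.555), for Vip -0.27 (adjusted p = 0.542), for Npy -0.24 (adjusted p = 0.624) and for Crhr1 0.20 (adjusted p = 0.558). Leaving out 1 library brought the difference to 0.25 for Pdyn (hippocampus Con 1), -0.24 for Crh (cortex IR 1; -0.28 without hippocampus Con 1) and -0.24 for Penk (cortex Con 2; -0.27 without hippocampus Con 1). A difference of the Crh change between the tissues was therefore not shown.

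Of the other lists, only the activity-regulated genes held calls in this comparison, with 3 of 10, Bdnf (-0.74), Nptx2 (-0.80) and Homer1 (-0.81), each with an adjusted p of 0.0303 or less. Pcsk1, which rose in the cortex, differed by -0.67 without passing (adjusted p = 0.187), as did Vgf, a granin-like peptide precursor (-0.59, adjusted p = 0.203). Tacr3 was at 0.41 (adjusted p = 0.461) and Cckbr at -0.31 (adjusted p = 0.517).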

How the data were processed

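Libraries were prepared from the cortex and hippocampus with a directional kit. For extraction the methods give an RNeasy kit with poly(A) selection afterwards, and the labels give Trizol and total RNA, which was not settled here. Per the methods and labels, the authors trimmed the reads, mapped them to mm10 with TopHat and estimated FPKM with Cufflinks. The methods also name a geometric normalization of read counts in edgeR, without stating whether it was applied to the deposited values. FPKM values were deposited by gene symbol. The annotation is not given in the sources used here.

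Values were transformed to log2(FPKM + 1). Genes that reached 0.5 FPKM in 3 or more libraries of a fit were tested with limma 3.58.1 in R 4.3.3 (trended variance, robust prior). Each tissue was fitted alone for IR against Con, and all 12 libraries together, with 4 group means, for the tissue difference and its interaction with irradiation. All p values are two-sided and adjusted by Benjamini-Hochberg over the genes tested. All 10 genes passed the filter in every fit. The fit was tested on simulated data. Plots were made in Python 3.11.15 (matplotlib 3.10.9), and gene positions came from GENCODE M21.

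The genes and lists were chosen with earlier results of these data known. Named from each list were the genes called (at most 4, by p) or, with none, the 2 with the smallest p, and for Crh the 3 genes nearest in pattern. The values of 1 marker gene are not reported here. Alternatives were a pseudocount of 0.1, no filter, at least 1 FPKM in every library, quantile normalization, median-ratio scaling and no trend or robust prior. Further ones were the library number as a block, a single fit for IR against Con, the Con libraries alone for the tissue difference, and each library left out. Counted with those of the tissue difference was the contrast of the IR groups, taken from the fit of all 12 libraries. Leaving out the 3 libraries highest in choroid plexus genes was added after the data were seen.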

Additional observations from a re-analysis of the deposited data

How the results depend on the processing

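The count of these genes called between the tissues was 8 under every alternative except requiring 1 FPKM or more in every library, which dropped Crh from every fit with hippocampus libraries and left 7 of 9, and leaving out any 1 library gave 8 to 8. The counts for IR against Con in both tissues and for the difference between them were 0 under every alternative, with 0 to 0 when 1 library was left out. Between the tissues 216 of the 219 values for single genes kept their direction and their side of the threshold. The exceptions were Penk in the IR libraries (-0.17), and Crhbp and Tac2 without hippocampus Con 3. For the irradiation contrasts 140 of 150 values in the cortex, 133 of 149 in the hippocampus and 182 of 199 of the differences did so, and the others changed sign. These were Cck in the cortex with quantile normalization (0.000702), Tac2 in the difference with a pseudocount of 0.1 (-0.0138), and, without the 3 libraries highest in choroid plexus genes, Tac1 in the cortex (-0.0339), Crh (-0.0313) and Tac2 (-0.43) in the hippocampus and Tac2 in the difference (-0.54). With each library left out in turn the cortex log2 change ran from -0.0755 to 0.0271 for Cck, -0.0339 to 0.0911 for Tac1, -0.0611 to 0.11 for Tac2 and -0.14 to 0.00954 for Pdyn. In the hippocampus it ran from -0.0849 to 0.21 for Crh, -0.12 to 0.0609 for Crhbp, -0.0340 to 0.0571 for Cck, -0.13 to 0.0912 for Tac1, -0.51 to 0.41 for Tac2 and -0.11 to 0.11 for Penk. For the difference between tissues it ran from -0.0801 to 0.10 for Crhbp, -0.0253 to 0.0773 for Cck, -0.16 to 0.0655 for Tac1 and -0.54 to 0.39 for Tac2. The cause of these sign changes was not tested. Of the larger changes that kept their sign, leaving out 1 library gave 0.20 to 0.50 for Penk in the cortex, 0.17 to 0.50 for Pdyn in the hippocampus, and differences of 0.25 to 0.58 for Pdyn, -0.58 to -0.24 for Crh and -0.54 to -0.24 for Penk.

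Libraries of different groups share the numbers 1 to 3, and nothing in the labels pairs them. Deviations of same-numbered Con and IR libraries correlated at -0.14 to 0.08 in the cortex and -0.36 to 0.00 in the hippocampus. Between cortex and hippocampus, same-numbered libraries correlated at -0.03 to 0.15 in Con and -0.13 to 0.13 in IR. Differently numbered ones correlated at -0.19 to 0.15 in Con and -0.25 to 0.23 in IR. The numbers were not taken as pairs, but these values do not tell whether same-numbered libraries came from the same mouse. With the number as a block 8 of these genes were called between the tissues and 0 in the other contrasts, and no call changed. With 3 libraries per group and no counts, the intervals printed bound what could be seen, and a change of Tac2 in the hippocampus within -1.04 to 1.17 could not be told from none.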
